A study of Callithrix jacchus with 54 samples.

Results

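Common marmoset primordial germ cell-like cells (cjPGCLCs) at 96 h of induction were compared between 2 routes, induction with the WNT inhibitor IWR1 and induction with enforced SOX17. The comparison took 4 sorted libraries, 2 per route, of the 54 libraries in the series. The columns were chosen by their labels alone, the tdTomato-positive cells at 96 h in BLSE + IWR1 and in SOX17 + BLSE. Each library held poly(A) RNA of cells sorted for tdTomato, which reports BLIMP1 (the gene PRDM1). The paper describes the cells of both routes at 96 h as positive also for eGFP, which reports NANOS3.

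All 4 libraries came from CMES40, a common marmoset embryonic stem cell (cjESC) line, and all cells carried BLIMP1-tdTomato and NANOS3-eGFP reporters, on both sides of the comparison. According to the paper, the cjESCs were grown over a layer of irradiated mouse embryonic fibroblasts (feeder cells). The SOX17 + BLSE cells had the genotype rtTA, tetO-BLIMP1, SOX17-GR and DD-TFAP2C, in which SOX17 is fused to the glucocorticoid receptor and switched on with dexamethasone. They started from cjESCs kept in the medium DK20FA and were cultured with enforced SOX17, BMP4, LIF, SCF, EGF and a Rock inhibitor. The BLSE + IWR1 cells were labelled wild type, without those transgenes. They started from cjESCs kept in the medium PESFA, were pre-induced for 24 h with IM12 and activin A, and then received the same cytokines and Rock inhibitor with IWR1. The transgenes, the starting medium, the pre-induction, dexamethasone and IWR1 all differ between the routes together, and their parts in any difference cannot be told apart. The 2 libraries of a group were prepared as biological duplicates, and p-values measure the spread between such duplicates.

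Primordial germ cells are the first cells of the germline. In primates they are specified by SOX17, PRDM1 and TFAP2C while core pluripotency genes stay on, and NANOS3 marks them. BMP4 starts the programme by acting on SMAD proteins, and WNT signalling through β-catenin gives cells the competence for it but also drives mesoderm. IWR1 stabilises AXIN and so lowers β-catenin activity, whereas enforced SOX17 supplies the specifier itself.

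Values are TPM, the transcript level of a gene corrected for its length and scaled to a fixed total per library. They hold no read totals, so depth is unknown. The 4 libraries listed 11847 to 12055 genes above 0. Between duplicates the correlation of log2(TPM + 1) across genes was 0.986 in both groups, and between groups it was 0.967 to 0.978. Differences below are BLSE + IWR1 minus SOX17 + BLSE on the log2(TPM + 1) scale, which understates the change of low genes, and each is given with its standard error (SE). A gene passed the test at an adjusted p under 0.01 in limma over 11197 genes. A differentially expressed gene (DEG) passed, differed more than 4-fold, and had a mean log2 value over 1.5. In a bulk library, fewer cells of a type and less RNA per cell cannot be told apart.

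The germ cell specifiers and the marker NANOS3 were expressed in the sorted cells of both routes. Since both routes were sorted for the BLIMP1 reporter, the level of PRDM1 was part of the gate. The paper describes these cells as positive for the NANOS3 reporter too, so the level of NANOS3 may also have been part of it. SOX17 (gene 100396115), the transcription factor that starts the primate germline programme, stood at 474 and 555 TPM with IWR1 and at 692 and 636 TPM with SOX17, a difference of −0.37 ± 0.29 (SE, n = 2 per group, limma adjusted p = 0.47). The table has 1 value per gene, so transcripts of the transgene and of the marmoset gene were not separated. PRDM1 (gene 100401970), a repressor of somatic genes, was at 156 and 181 TPM against 183 and 155 TPM. TFAP2C (gene 100400638) was at 771 and 859 TPM against 981 and 938 TPM, and NANOS3 (gene 100405226), which guards migrating germ cells, at 146 and 225 TPM against 276 and 234 TPM. None of these 4 genes passed the test, in which 2.04% of genes passed higher and 4.05% lower with IWR1. With 2 libraries per group this does not show equal levels: all 4 differences were negative, from −0.48 to −0.0076. The 2 groups overlapped for PRDM1 and not for the other 3, and did not overlap for 50.1% of all tested genes. In the starting cjESCs NANOS3 was at 0.42 to 1.85 TPM and SOX17 at 7.22 to 36.2 TPM.

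POU5F1 (gene 100384946) was at 7085 and 6996 TPM with IWR1 and at 6321 and 5730 TPM with SOX17, and NANOG (gene 100399586) at 795 and 691 TPM against 925 and 891 TPM. SOX2 (gene 100407856), which primate germ cells switch off, was at 0 to 1.30 TPM in the 4 libraries, against 191 to 235 TPM in the starting cjESCs. PRDM14 (gene 100411718) lay at 42.7 to 66.1 TPM and KIT (gene 100411615), the receptor for SCF, at 2.61 to 3.90 TPM. Among 13 core pluripotency genes tested, 0 passed in limma (2729 of 11197 genes had an unadjusted p under 0.05), and their median difference was 0.09 beside −0.04 for all genes. Among 20 early germ cell genes, 2 passed, both lower with IWR1, and leaving out any 1 of the 4 libraries left 0 that passed (adjusted p up to 0.07 for PDPN and 0.11 for KLF4). These were PDPN (gene 100387851), a surface glycoprotein of germ cells, at 847 and 877 TPM against 1242 and 1195 TPM, and KLF4 (gene 100407017) at 63.4 and 64.0 TPM against 102 and 117 TPM. Of 9 late germ cell genes, 7 DNA methylation genes and 21 FGF and ERK feedback genes, 0 passed. This does not show equal levels: all 7 DNA methylation genes had positive differences, from 0.18 to 0.48. Their median was 0.38 beside −0.04 for all genes. The gene of the glucocorticoid receptor, NR3C1 (gene 100394916), was at 0.80 to 0.92 TPM in the 4 libraries, and FKBP1A, the parent gene of the destabilisation domain in DD-TFAP2C, at 152 and 151 TPM against 151 and 186 TPM (−0.14, adjusted p = 0.39).

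The DEGs lay mostly on the SOX17 side. The test found 64 DEGs, 0.572% of the genes tested, of which 61 were higher in SOX17 + BLSE and 3 higher in BLSE + IWR1, and 4 had no name but a LOC symbol. At the adjusted p alone 681 genes passed, 453 lower and 228 higher with IWR1. The groups did not overlap for any of the 64 DEGs, as for 50.1% of all tested genes. Most of the 61 genes were of low level, with a median of 16.1 TPM in SOX17 + BLSE and 2.19 TPM in BLSE + IWR1, and 8 were over 100 TPM. The count rested on a spread shared by all 54 libraries. In limma fits of the 4 libraries alone or of the 8 sorted libraries at 96 h, 0 genes were called, with 2134 and 2645 genes at an unadjusted p under 0.05. Leaving out 1 of the 4 libraries gave 41 DEGs (without SOX17 + BLSE replicate 2) to 98 DEGs (without SOX17 + BLSE replicate 1). In all 4 of these fits 29 of the 64 genes were DEGs and 47 passed the test.

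**Figure D1:**
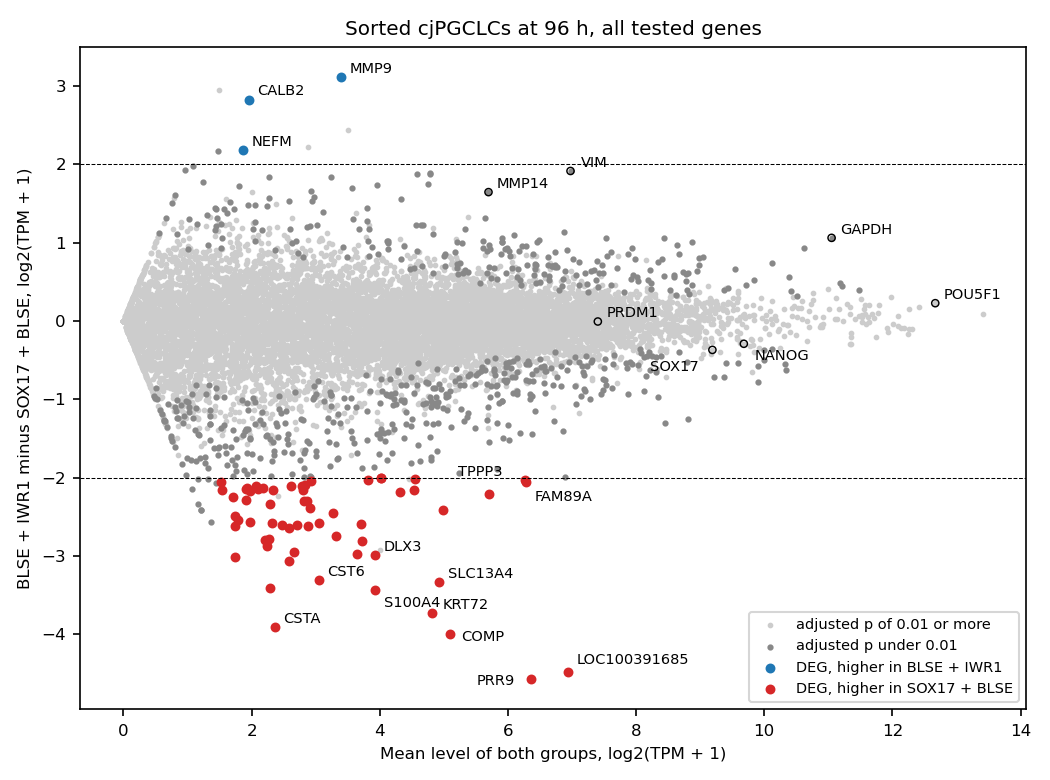
Difference between BLSE + IWR1 and SOX17 + BLSE at 96 h (vertical axis, log2(TPM + 1)) against the mean level of both groups (horizontal axis, same scale), a point per tested gene. Dashed lines mark a 4-fold difference; 61 DEGs lie below and 3 above, while POU5F1, NANOG, SOX17 and PRDM1 lie near 0.

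PRR9, LOC100391685 and COMP had the largest differences among the genes higher with SOX17, and CSTA and KRT72 followed. LOC100391685 has no gene name and stood at −4.49. PRR9 (gene 100896559), a small proline-rich protein of hair and skin, was at 17.3 and 14.5 TPM with IWR1 and at 301 and 531 TPM with SOX17, a difference of −4.57 ± 0.52 (SE, n = 2 per group, limma adjusted p = 8.9e-08). CSTA (gene 100406044), cystatin A, an inhibitor of cysteine proteases in keratinocytes, was at 0.77 and 0 TPM against 17.6 and 20.3 TPM (−3.90 ± 0.49). KRT72 (gene 100395494), a keratin of the hair root sheath, was at 9.17 and 4.89 TPM against 94.3 and 109 TPM (−3.73 ± 0.39). For these 3 genes both SOX17 libraries lay far above both IWR1 libraries, and each gene was a DEG without any 1 of the 4 libraries.

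Other genes known from epithelia were also DEGs higher with SOX17. CST6 (gene 100391983), the skin cystatin M, was at 0.66 and 3.13 TPM with IWR1 and at 25.7 and 24.3 TPM with SOX17. KRT80 (gene 100393548) was at 2.53 and 0.46 TPM against 13.2 and 20.5 TPM. VGLL1 (gene 100389649), a cofactor of TEAD proteins found in trophoblast, was at 1.23 and 0 TPM against 8.89 and 24.2 TPM. Further such DEGs were GJB2 (connexin 26), CLDN1 (claudin 1, a tight junction protein), TCHH (trichohyalin) and TMEM79 (a protein of the skin barrier). CLDN1 had a difference of −2.15, of −1.85 (adjusted p = 0.014) without BLSE + IWR1 replicate 2 and of −1.90 (adjusted p = 0.014) without SOX17 + BLSE replicate 2. GJB2 was at −2.04 and fell under the 4-fold limit without BLSE + IWR1 replicate 2 (−1.78) or SOX17 + BLSE replicate 2 (−1.91), as did TCHH, at −2.15, without BLSE + IWR1 replicate 1 (−1.63).

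Of 23 tested genes of a keratinocyte and cystatin list, 5 passed, all lower with IWR1, and 0 passed higher. Over all tested genes 2.04% passed higher and 4.05% lower, the shares to set beside each list count at 96 h. The genes of the list that passed were the DEGs CSTA, CST6 and KRT80 together with KRT16 and IVL. IVL (gene 100414354), involucrin, a protein of the cornified envelope, was at 0.27 and 1.12 TPM with IWR1 and at 3.71 and 7.88 TPM with SOX17 (−1.98 ± 0.26). KRT16 reached 1.99 TPM at most among the 4 libraries, and its difference of −0.98 passed only without SOX17 + BLSE replicate 1, falling to −0.39 (adjusted p = 0.39) without SOX17 + BLSE replicate 2. The list's median difference was −0.38, and the other 18 members did not pass.

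Several epithelial genes were as high or higher in cells with little POU5F1 and NANOG. In unsorted cells cultured in BLSE without SOX17 for 96 h, of the transgenic line from DK20FA, POU5F1 was at 103 and 125 TPM and NANOG at 1.46 and 2.17 TPM. PRR9 was there at 645 and 1042 TPM, KRT80 at 21.8 and 35.5 TPM and IVL at 8.70 and 15.3 TPM, each above the SOX17 + BLSE sort. CST6 was lower there, at 2.36 and 3.57 TPM. Of the 61 genes higher with SOX17, 26 had a higher mean in the unsorted BLSE cells than in the SOX17 + BLSE sort, and 48 a higher mean than in BLSE + IWR1. The 61 genes were chosen as high in SOX17 + BLSE and low in BLSE + IWR1. No share over all genes was counted beside them, so nothing is read from these 2 counts. The part of any cells like the unsorted BLSE cells among the sorted cells in the differences between the routes was not tested.

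**Figure D2:**
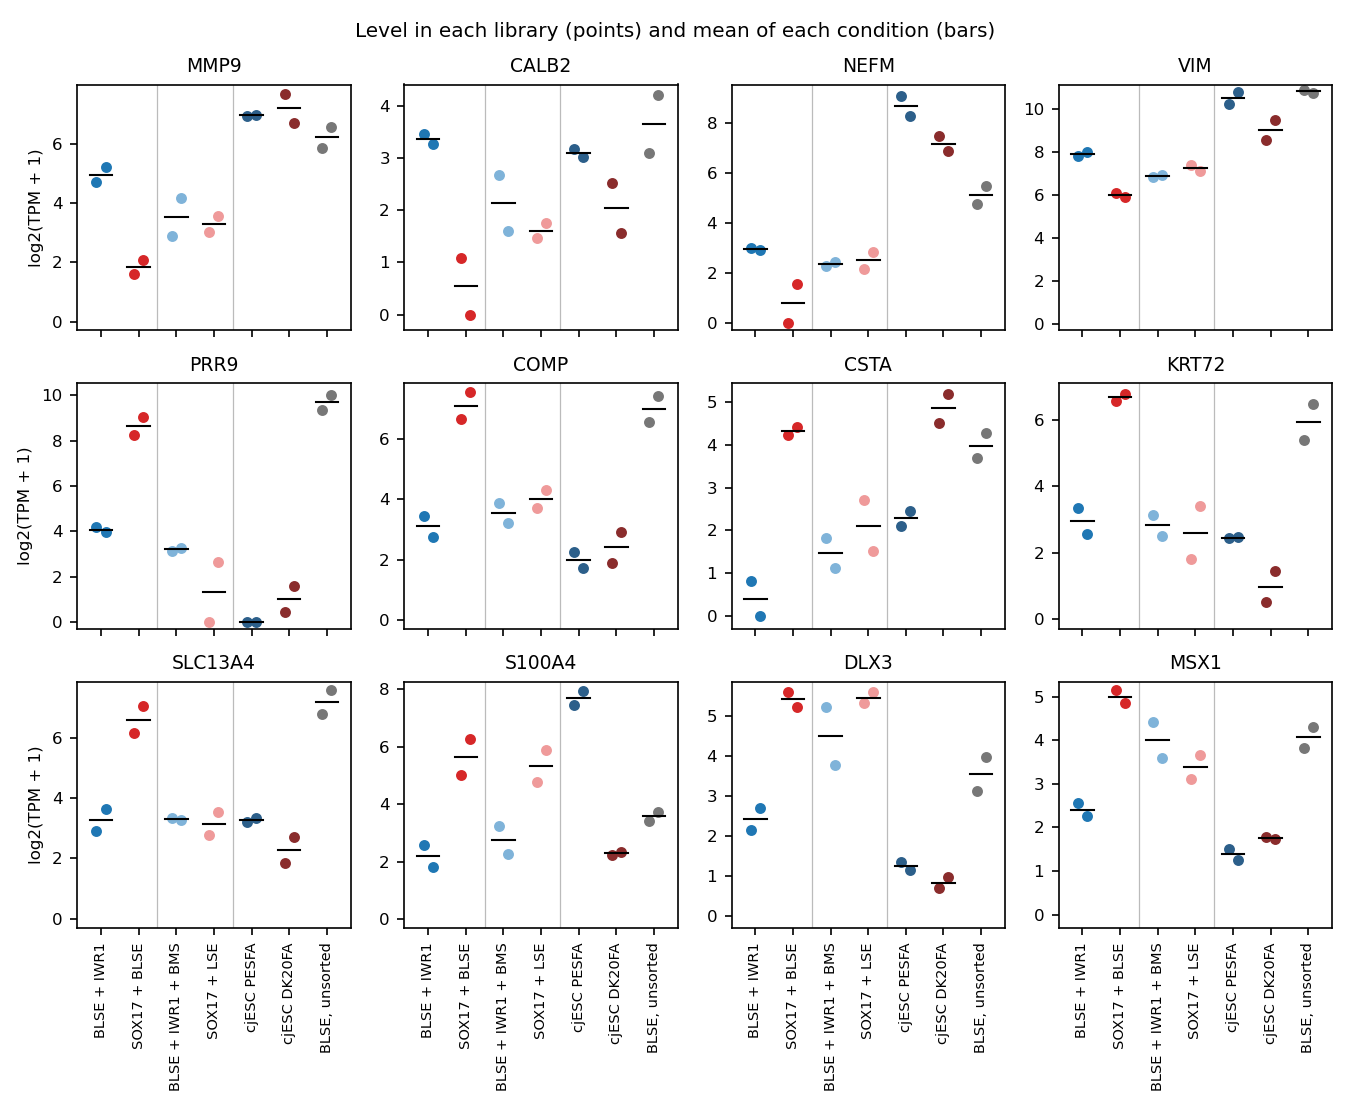
Level of 12 genes on the log2(TPM + 1) scale (vertical axis) in 7 conditions (horizontal axis); points are libraries, 2 per condition, and bars their mean. From the left stand the 4 sorted conditions at 96 h, the 2 kinds of cjESCs and the unsorted BLSE cells at 96 h. PRR9, COMP and SLC13A4 are high in SOX17 + BLSE and in unsorted BLSE cells, and MMP9, CALB2, NEFM and VIM are lowest in SOX17 + BLSE.

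COMP (gene 100391690), cartilage oligomeric matrix protein, was at 9.95 and 5.70 TPM with IWR1 and at 99.6 and 186 TPM with SOX17, a difference of −4.002 ± 0.51 (SE, n = 2 per group, limma adjusted p = 8.8e-07). Of 35 tested matrix protein genes 2 passed higher and 2 lower, where 2.04% of all genes passed higher and 4.05% lower. Nothing is read from so small a count, and the list's median difference was 0.11. THBS2, a relative of COMP, was lower with IWR1 at −1.02, and passed without SOX17 + BLSE replicate 1 but not without any other of the 4 libraries (adjusted p up to 0.12). VTN (gene 100401491), vitronectin, was higher with IWR1 at 47.2 and 49.1 TPM against 26.6 and 24.8 TPM, and COL18A1 (gene 100407288), a basement membrane collagen, at 101 and 162 TPM against 63.3 and 60.1 TPM. COL18A1 had a difference of 1.04, and of 0.70 (adjusted p = 0.046) without BLSE + IWR1 replicate 2. FSTL3 (gene 100414737), a secreted binder of activin, was at 3.76 and 4.24 TPM against 29.2 and 39.7 TPM (−2.81 ± 0.32).

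MMP9 (gene 100415095), a gelatinase that cuts type IV collagen, had the largest difference among the 3 DEGs higher with IWR1. It was at 24.8 and 36.3 TPM with IWR1 and at 2.07 and 3.20 TPM with SOX17, a difference of 3.11 ± 0.37 (SE, n = 2 per group, limma adjusted p = 1.8e-07). Both groups lay below the starting cjESCs, which held 103 to 206 TPM. MMP14 (gene 100389088), a membrane-bound matrix protease, was also higher with IWR1, at 82.8 and 99.4 TPM against 28.0 and 28.7 TPM (1.64 ± 0.16). TIMP1, an inhibitor of such proteases, was lower at 38.2 and 41.1 TPM against 73.6 and 93.0 TPM. The difference of TIMP1, −1.04, was −0.88 (adjusted p = 0.075) without SOX17 + BLSE replicate 2 and also lost its call without either IWR1 library (0.030 and 0.020). In the list of 21 tested proteases and inhibitors, 3 passed higher and 1 lower, beside 2.04% and 4.05% of all genes. The list's median difference was −0.09.

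CALB2 (gene 100396139), calretinin, a calcium-buffering protein best known in neurons, was at 10.04 and 8.65 TPM with IWR1 and at 1.12 and 0 TPM with SOX17 (2.83 ± 0.48, adjusted p = 7.9e-05). Without SOX17 + BLSE replicate 2 it stood at 2.28 with an adjusted p of 0.014. The other calcium-binding proteins that passed went the other way: of 18 tested, 1 passed higher and 5 lower with IWR1. The shares over all genes were 2.04% higher and 4.05% lower. S100A4 (gene 100897037), an S100 protein of motile cells, was at 5.04 and 2.55 TPM against 31.7 and 76.2 TPM (−3.44 ± 0.63), with −3.06 and −2.82 (adjusted p = 0.012 and 0.021) without BLSE + IWR1 replicate 2 or SOX17 + BLSE replicate 2. S100P (gene 100388065) was at 3.33 and 1.57 TPM against 10.1 and 17.5 TPM (−2.10), and at −1.73 and −1.74 (adjusted p = 0.052 and 0.053) without the same libraries. S100P was listed at 0 in all cjESC libraries and reached 76.6 and 142 TPM in the unsorted BLSE cells. ANXA1 (gene 100406874), annexin A1, was at 14.1 and 23.3 TPM with IWR1 and at 58.4 and 90.8 TPM with SOX17 (−1.94 ± 0.27).

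Some of the 61 genes encode membrane transporters or enzymes of ion balance, and were named after their values were seen. SLC30A2 (gene 100402727), a zinc exporter, was at 10.9 and 15.1 TPM with IWR1 and at 67.4 and 77.6 TPM with SOX17 (−2.41). AQP8 (gene 100398503), a water channel, was at 0.25 and 1.46 TPM against 12.1 and 10.3 TPM (−2.79), and SLC6A2 (gene 100388661), the noradrenaline transporter, at 0.79 and 0.47 TPM against 7.65 and 9.68 TPM (−2.57). Each of these 3 was a DEG without any 1 of the 4 libraries, and both SOX17 libraries lay above both IWR1 libraries. CA6 (gene 100396671), a secreted carbonic anhydrase, was at 0.28 and 1.64 TPM against 9.80 and 13.9 TPM (−2.79) and lost its call without BLSE + IWR1 replicate 1 or SOX17 + BLSE replicate 2 (−2.26 and −2.55, adjusted p = 0.019 and 0.014). FXYD4 (gene 103796619), a regulator of the sodium pump, was at 0.72 and 7.59 TPM against 16.3 and 37.5 TPM, so that its 2 IWR1 libraries stood far apart, and its difference of −2.75 was −1.59 and −2.17 (adjusted p = 0.18 and 0.10) without the same libraries.

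Genes best known from neurons and secretory cells were found on the SOX17 side as well. CHRNB4 (gene 100390460), a nicotinic receptor subunit, was at 2.64 and 3.67 TPM with IWR1 and at 18.2 and 25.7 TPM with SOX17 (−2.46). CHGB (gene 100404984), chromogranin B of secretory granules, was at 5.09 and 6.88 TPM against 23.4 and 32.1 TPM (−2.04). ADCYAP1 (gene 100390670), which encodes the neuropeptide PACAP, was at 0.82 and 0.23 TPM against 6.08 and 6.11 TPM (−2.25), and ADCY5 (gene 100412782), an adenylate cyclase, at 1.0 and 2.54 TPM against 10.7 and 21.5 TPM (−2.61). Several transcription factors were among the 61. CEBPA (gene 103796367), a factor of fat, liver and myeloid cells and of epidermis, was at 1.38 and 3.55 TPM against 12.0 and 19.0 TPM (−2.29), SP6 (gene 100407791), a factor of tooth and skin epithelium, at 19.7 and 27.3 TPM against 95.4 and 129 TPM (−2.21), and BARX1 (gene 100402407), a homeobox factor of tooth and stomach mesenchyme, at 0.23 and 1.38 TPM against 6.38 and 8.38 TPM (−2.28). All 7 genes passed without any 1 of the 4 libraries, while only CHRNB4 and ADCY5 were DEGs each time.

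Both media held BMP4. Of 18 tested BMP targets 6 passed, all lower with IWR1 (4.05% of all genes passed lower), and 2 of them were DEGs. Their median difference was −0.83 beside −0.04 over all genes, and 16 of 18 were negative. DLX3 (gene 100387476), a homeobox factor of surface ectoderm and placenta, was at 3.48 and 5.51 TPM with IWR1 and at 48.1 and 36.7 TPM with SOX17 (−2.99 ± 0.40, adjusted p = 2.0e-06). MSX1 (gene 100412220), a homeobox target of BMP, was at 4.89 and 3.77 TPM against 34.3 and 28.1 TPM (−2.60 ± 0.40). TFAP2A (gene 100393261), a factor of nascent amnion and surface ectoderm, was at 9.88 and 12.0 TPM against 37.9 and 44.3 TPM (−1.82 ± 0.28). GATA3, ID4 and SMAD7 passed with smaller differences of −1.16, −0.87 and −0.76. Leaving out 1 of the 4 libraries gave 3 to 7 targets that passed lower, and DLX3, MSX1 and TFAP2A were among them each time. GATA3, ID4 and SMAD7 each lost their calls in 3 of the 4 fits, with GATA3 at −0.63 (adjusted p = 0.22) without BLSE + IWR1 replicate 1, ID4 at −0.68 (0.14) without SOX17 + BLSE replicate 2 and SMAD7 at −0.63 (0.046) without BLSE + IWR1 replicate 1.

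Levels of some of these targets are given for the other sorted cells, and the remaining ones are not reported here. The part of BMP4 in these levels was not tested. In SOX17 + LSE, which had no BMP4, MSX1 was at 7.66 and 11.6 TPM and TFAP2A at 12.4 and 13.7 TPM, near the BLSE + IWR1 cells. DLX3 was at 39.2 and 48.2 TPM there, near the SOX17 + BLSE cells. In BLSE + IWR1 + BMS, which adds an inverse agonist of retinoic acid receptors to BLSE + IWR1, DLX3 was at 36.8 and 12.8 TPM, MSX1 at 20.4 and 11.1 TPM and GATA3 at 213 and 144 TPM.

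Among 14 tested markers of amnion-like cells 3 passed, and all 3, ISL1, TFAP2A and GATA3, were lower with IWR1 (4.05% of all genes passed lower). ISL1 (gene 100385297) was at 4.31 and 6.93 TPM against 11.1 and 14.8 TPM (−1.09), and at −0.80 and −0.89 (adjusted p = 0.12 and 0.11) without BLSE + IWR1 replicate 1 or SOX17 + BLSE replicate 2. The summed level of the 13 markers that are in no germ cell or pluripotency list was 1376 and 1765 TPM with IWR1 and 1637 and 1892 TPM with SOX17, against 11348 and 11575 TPM in unsorted BLSE cells.

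Some targets of WNT signalling were lower in the cells that had received IWR1. Of 24 tested WNT targets and feedback genes 6 passed, all lower, and 0 passed higher, with a median difference of −0.47. Among all genes 4.05% passed lower and 2.04% higher. APCDD1 (gene 100393576), a membrane inhibitor of WNT, was at 38.4 and 32.4 TPM with IWR1 and at 96.8 and 107 TPM with SOX17, a difference of −1.499 ± 0.18 (SE, n = 2 per group, limma adjusted p = 2.1e-07). AXIN2 (gene 100400518), the common feedback target of β-catenin, was at 1.59 and 0.88 TPM against 4.13 and 6.19 TPM (−1.46 ± 0.30). SP5, another direct target, was at 1.14 and 1.06 TPM against 7.07 and 6.77 TPM, and NKD1 at 10.5 and 13.99 TPM against 26.95 and 25.9 TPM. EVX1 was at 6.03 and 13.5 TPM against 27.3 and 23.2 TPM. These genes are named because they passed, and for each the 2 IWR1 libraries lay below both SOX17 libraries, where the groups of 50.1% of all tested genes did not overlap.

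The DEG of the WNT list was CDX2 (gene 100412955), a caudal homeobox factor of trophoblast, posterior mesoderm and gut. It was at 0.33 and 1.46 TPM with IWR1 and at 4.6 and 10.2 TPM with SOX17 (−2.13 ± 0.42, adjusted p = 4.7e-04), and at −1.69 and −1.63 (adjusted p = 0.028 and 0.045) without BLSE + IWR1 replicate 1 or SOX17 + BLSE replicate 2. Without SOX17 + BLSE replicate 2, 1 WNT target of the list passed, APCDD1, and 2 to 5 passed without any other 1 of the 4 libraries. In that fit AXIN2 stood at −1.22 (adjusted p = 0.041; −1.23 and 0.036 without BLSE + IWR1 replicate 2), and NKD1, EVX1 and SP5 lost their calls at −1.09, −1.49 and −1.94 (adjusted p = 0.028, 0.020 and 0.047). EVX1, at −1.38 over all libraries, was at −0.86 (adjusted p = 0.15) without BLSE + IWR1 replicate 1, and NKD1, at −1.06, was then at −0.87 (adjusted p = 0.061). In BLSE + IWR1 + BMS, which also holds IWR1, APCDD1 was at 34.3 and 27.4 TPM and SP5 at 0.89 and 0.34 TPM, against 111 and 128 TPM and 24.1 and 13.6 TPM in SOX17 + LSE.

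Dexamethasone, which was given on the SOX17 side, is a ligand of the glucocorticoid receptor. Of 17 tested targets of that receptor, 4 passed lower with IWR1 and 1 passed higher, with a median difference of −0.27. Among all genes 4.05% passed lower and 2.04% higher. TSC22D3, a steroid-induced leucine zipper protein, was at 7.11 and 4.36 TPM with IWR1 and at 13.9 and 16.8 TPM with SOX17, and TAT, a liver enzyme of tyrosine breakdown, at 49.5 and 49.5 TPM against 104 and 178 TPM. HSD11B2, which inactivates cortisol, was at 1.17 and 0.20 TPM against 2.78 and 7.82 TPM, and NFKBIA at 101 and 94.3 TPM against 172 and 178 TPM. Without BLSE + IWR1 replicate 2, 0 of the 17 passed (TSC22D3 at −1.01, adjusted p = 0.098). Without SOX17 + BLSE replicate 2 TSC22D3, TAT, HSD11B2 and NFKBIA stood at −1.18, −1.06, −1.23 and −0.81 and lost their calls (adjusted p = 0.053, 0.19, 0.11 and 0.051). SOX17 was switched on with dexamethasone in SOX17 + LSE as well. TSC22D3 was at 7.17 and 5.29 TPM there, near the BLSE + IWR1 cells. This is 1 gene of the list, and the levels of TAT, HSD11B2 and NFKBIA in SOX17 + LSE are not reported here. Nothing is read from it, and the part of dexamethasone in these differences was not tested.

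Several genes of glycolysis were higher in BLSE + IWR1. Of 26 tested glycolysis and hypoxia genes 9 passed higher and 1 lower, beside 2.04% and 4.05% of all genes. The list's median difference was 0.45. GAPDH (gene 100412621) was at 3086 and 3041 TPM with IWR1 and at 1535 and 1405 TPM with SOX17, a difference of 1.06 ± 0.09 (SE, n = 2 per group, limma adjusted p = 7.2e-10). PKM (gene 100412392), pyruvate kinase, was at 81.9 and 89.5 TPM against 43.9 and 37.6 TPM (1.06 ± 0.14). PGK1 (gene 100392550) was at 321 and 355 TPM against 182 and 173 TPM (0.93 ± 0.10), and TPI1 (gene 100408059) at 507 and 616 TPM against 319 and 254 TPM (0.97 ± 0.14). LDHA, which makes lactate, was at 1362 and 1501 TPM against 905 and 812 TPM, and PGAM1 at 632 and 665 TPM against 424 and 365 TPM. These 6 enzymes passed without any 1 of the 4 libraries. ALDOA (0.63), ENO1 (1.17) and P4HA1 (0.83) also passed, and stood at 0.54, 0.99 and 0.73 (adjusted p = 0.011, 0.066 and 0.12) without BLSE + IWR1 replicate 2. Several of these enzymes have processed copies in primate genomes, and reads may have been split among them.

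The hypoxia gene that passed lower was VEGFA (gene 100389629), the endothelial growth factor, at 12.7 and 15.5 TPM with IWR1 and at 46.3 and 55.0 TPM with SOX17 (−1.78 ± 0.27). Further levels of GAPDH were 3176 and 2818 TPM in BLSE + IWR1 + BMS and 2534 and 2231 TPM in SOX17 + LSE, and those of the cjESCs 3662 and 3254 TPM in PESFA and 2657 and 2996 TPM in DK20FA. Both SOX17 + BLSE libraries lay below all 10 other libraries of these conditions. PHGDH (gene 100388777), the first enzyme of serine synthesis from a glycolytic intermediate, was at 156 and 175 TPM against 77.9 and 99.0 TPM (0.90 ± 0.12).

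Cell cycle genes had a median difference of 0.42, with 15 of 20 positive. CCNB1, PLK1 and MCM3, 3 of the 20, passed higher, at 0.56, 0.55 and 0.54. The shares over all genes were 2.04% higher and 4.05% lower. Without BLSE + IWR1 replicate 2 or SOX17 + BLSE replicate 2, 0 of 20 passed. CCNB1 then stood at 0.53 and 0.66 (adjusted p = 0.072 and 0.019), PLK1 at 0.41 and 0.65 (0.14 and 0.015) and MCM3 at 0.49 and 0.35 (0.018 and 0.081). Of 13 p53 targets 3 passed lower, FAS, ZMAT3 and BTG2, at −1.32, −0.82 and −0.82. The p53 list had a median of −0.66 with 12 of 13 negative, and at most 1 of its genes passed without any 1 of the 4 libraries. FAS, a death receptor, was at 10.98 and 10.2 TPM with IWR1 and 29.4 and 26.4 TPM with SOX17. NUPR1 (gene 100388970), a stress-induced chromatin protein and the DEG of the 18 amino acid stress genes, was at 0.39 and 0 TPM against 5.87 and 12.3 TPM (−3.02 ± 0.48).

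**Figure D3:**
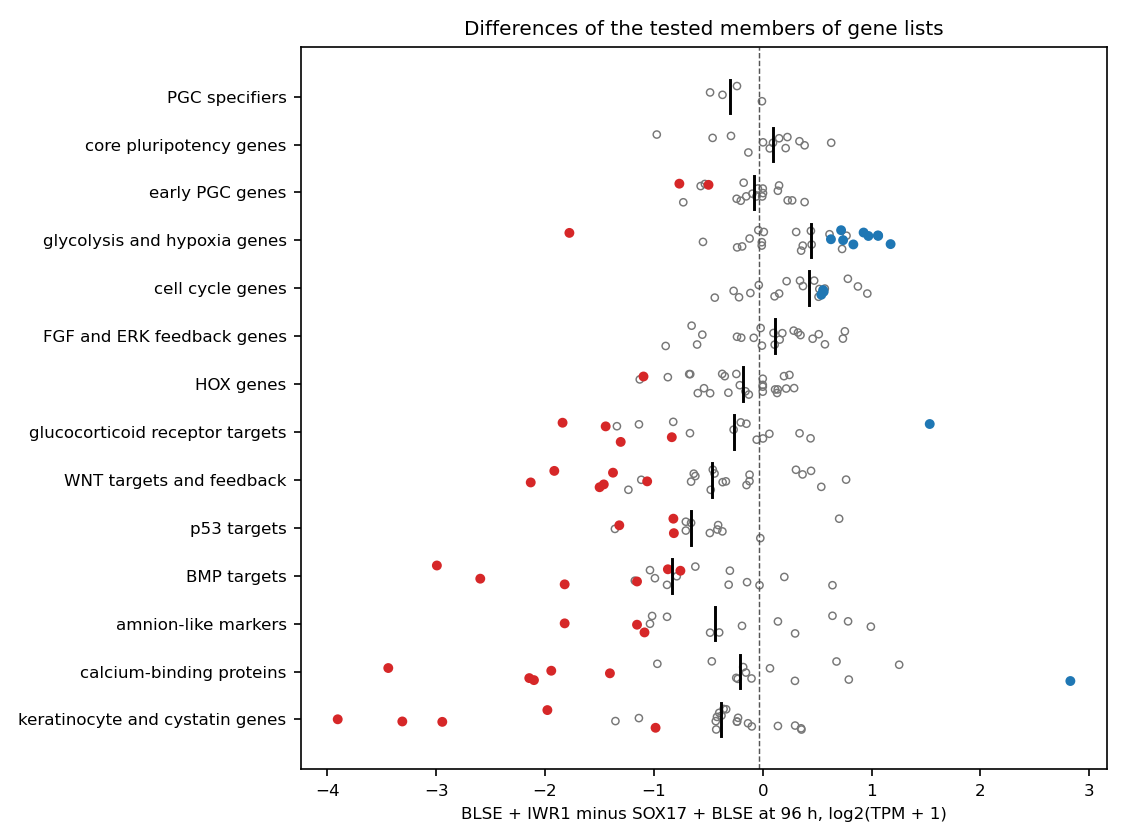
Difference between BLSE + IWR1 and SOX17 + BLSE at 96 h (horizontal axis, log2(TPM + 1)) for the tested members of 14 gene lists. Filled points passed the test (blue higher and red lower with IWR1), open points did not, short bars are list medians and the dashed line the median of all genes. BMP targets have a median of −0.83 and glycolysis and hypoxia genes one of 0.45.

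Genes of the mesenchyme and of neurons were few among those that passed, where 2.04% of all genes passed higher and 4.05% lower. VIM (gene 100408168), vimentin, an intermediate filament of mesenchymal cells, was at 229 and 259 TPM with IWR1 and at 68.4 and 59.7 TPM with SOX17, a difference of 1.91 ± 0.19 (SE, n = 2 per group, limma adjusted p = 8.4e-09). Both were far below the cjESCs, at 375 to 1817 TPM. In the list of 11 mesenchyme genes tested VIM and TGFBI passed higher and TWIST1 lower, and TGFBI and TWIST1 lost their calls without some of the 4 libraries (adjusted p up to 0.16 and 0.07). NEFM (gene 100410259), a neurofilament protein, was at 6.98 and 6.57 TPM with IWR1 and at 0 and 1.95 TPM with SOX17 (2.18 ± 0.37), and at 1.398 (adjusted p = 0.023) without SOX17 + BLSE replicate 1. NEFM was at 117 to 544 TPM in the cjESCs. NES (gene 100409695), nestin, was at 94.8 and 111 TPM against 53.3 and 51.4 TPM (0.96 ± 0.13). PEG10 (gene 103794842), an imprinted gene, was at 31.8 and 35.5 TPM against 11.9 and 9.74 TPM (1.55 ± 0.21), while the other 11 imprinted genes tested did not pass.

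Markers of other cells were compared for admixture. Of 14 stromal markers tested 2 passed, COL3A1 and DCN, both higher with IWR1 (2.04% of all genes passed higher and 4.05% lower). COL3A1 was at 1.57 and 4.66 TPM with IWR1 and was listed at 0 in both SOX17 libraries, and DCN was at 26.2 and 28.6 TPM against 6.01 and 9.37 TPM. Without SOX17 + BLSE replicate 1 both lost their calls (adjusted p = 0.047 and 0.092), and at most 1 stromal marker passed without any 1 of the 4 libraries (COL3A1 at 1.36, adjusted p = 0.21, without BLSE + IWR1 replicate 2). The 16 stromal markers summed to 130 and 172 TPM with IWR1 and to 108 and 119 TPM with SOX17, against 3985 and 2573 TPM in cjESCs in PESFA, and ASPN was listed at 0 in all 4 libraries. The 15 endothelial and blood markers summed to 80.8 and 87.9 TPM against 74.9 and 68.2 TPM, with EGFL7 passed higher of 11 tested. EGFL7 stood at 1.17, passed without BLSE + IWR1 replicate 1, and did not pass without any other of the libraries (0.76, adjusted p = 0.23, without BLSE + IWR1 replicate 2). The 14 endoderm markers outside the germ cell lists summed to 235 and 320 TPM against 345 and 446 TPM, with CER1 listed at 0 in all 4 libraries. APOA2 passed, listed at 0 with SOX17 and at 2.27 and 0.89 TPM with IWR1, though not without BLSE + IWR1 replicate 1 (adjusted p = 0.031). The 17 neural markers summed to 108 and 131 TPM against 68.5 and 69.3 TPM, most of it NES, with SOX1, ZIC1 and LHX2 listed at 0. The part of these small sums in the differences between the routes was not tested.

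Few genes of the remaining lists passed. With 2.04% of all genes passed higher and 4.05% lower, nothing is read from these small counts. HOXA10 was the 1 gene that passed of 26 HOX genes, at 0.38 and 0.39 TPM against 2.21 and 1.75 TPM, and 0 passed without any 1 of the 4 libraries (HOXA10 at −0.99, adjusted p = 0.031, without SOX17 + BLSE replicate 1). Of 14 retinoic acid genes CYP26A1, which breaks down retinoic acid, passed at −1.57, and stood at −0.75 and −0.97 (adjusted p = 0.35 and 0.24) without BLSE + IWR1 replicate 2 or SOX17 + BLSE replicate 2. Of 14 NODAL and activin genes SMAD7 and FST passed lower. FST, follistatin, stood at −1.45, and at −1.16 and −1.001 (adjusted p = 0.051 and 0.12) without BLSE + IWR1 replicate 1 or SOX17 + BLSE replicate 2. Of 10 LIF and STAT3 genes and 19 cholesterol synthesis genes 0 passed in limma. The 23 chromosomes with at least 100 tested genes each had a median difference between −0.14 and 0.04, so no chromosome stood apart as a block.

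Between the starting cjESCs in PESFA and in DK20FA there were 228 DEGs, and 16.8% of genes passed (8.09% higher and 8.73% lower in PESFA), so each DEG at 96 h was set beside its starting difference. Lists of markers of other cells differed in how far they moved with the starting difference. Of 14 stromal markers tested 12 passed higher in PESFA and 0 lower, with a median difference of 2.06. The 16 stromal markers, COL1A1 foremost, summed to 3985 and 2573 TPM in PESFA and to 353 and 454 TPM in DK20FA, where ASPN and TBX5 were listed at 0. Of 11 endothelial and blood markers 5 passed higher in PESFA and 0 lower, and of 14 amnion-like markers 1 passed higher and 7 lower. Endoderm markers had 1 passed higher and 1 lower of 16, with a median difference of 0. Neural markers had 1 passed higher and 0 lower of 13. The part of other cells, feeder fibroblasts among them, in the starting differences and in the changes from them given below was not tested.

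Of the 61 genes higher with SOX17 at 96 h, 8 were already lower in PESFA, 9 were higher in PESFA and 44 did not pass at the start. The median starting difference of the 61 was 0.09. The change of the difference from start to 96 h, tested as an interaction in which 11.4% of genes passed (4.53% higher and 6.87% lower), was negative and passed for 46 of the 61 and did not pass for 15. The interaction shares the 96 h libraries with the choice of the 61 genes.

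**Figure D4:**
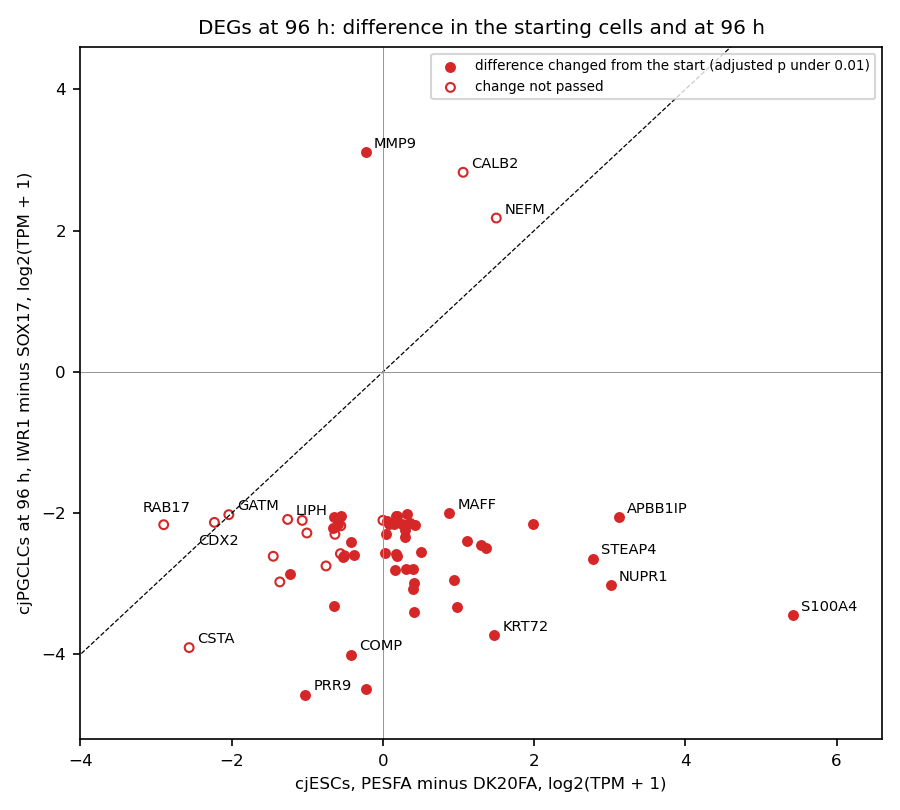
The 64 DEGs at 96 h, with the difference between cjESCs in PESFA and DK20FA on the horizontal axis and the difference between IWR1 and SOX17 cjPGCLCs on the vertical axis, both in log2(TPM + 1). Filled points changed their difference from the start (adjusted p under 0.01); the dashed line marks equal differences. CDX2, RAB17 and GATM lie near the line, and S100A4 stands at 5.42 at the start and −3.44 at 96 h.

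CSTA was lower in PESFA at the start, at 3.29 and 4.52 TPM against 21.9 and 35.2 TPM in DK20FA. Its change beyond the start of −1.34 ± 0.69 did not pass (limma adjusted p = 0.17). A change that does not pass does not show that the starting difference persisted. CDX2 was at 0.09 and 0.97 TPM in PESFA and at 3.69 and 9.06 TPM in DK20FA, and its change was 0.10 (adjusted p = 0.93). GATM (gene 100408432), the first enzyme of creatine synthesis, was at 0.97 and 0.67 TPM in PESFA and 5.32 and 7.78 TPM in DK20FA, and then at 9.73 and 11.6 TPM with IWR1 and 41.6 and 51.2 TPM with SOX17. Its change beyond the start was 0.02 (adjusted p = 0.98). RAB17 and LIPH, the latter a phospholipase of hair follicles, were also lower in PESFA at the start.

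PRR9, COMP, KRT72, DLX3 and SLC13A4 were low in both kinds of cjESCs and high at 96 h with SOX17. PRR9 was listed at 0 in PESFA and was at 0.38 and 2.0 TPM in DK20FA, and COMP was at 2.28 to 6.62 TPM in the 4 cjESC libraries. The change of COMP beyond the start was −3.58 ± 0.72 (limma adjusted p = 4.1e-04). SLC13A4 (gene 100413094), a sulfate transporter of placenta, was at 2.62 to 9.11 TPM in the cjESC libraries, at 6.48 and 11.3 TPM with IWR1 and at 70.3 and 130 TPM with SOX17. MMP9 was at 122 and 125 TPM in PESFA and 206 and 103 TPM in DK20FA, where it did not pass (−0.23, adjusted p = 0.70), and the change beyond the start was 3.34 ± 0.52 (adjusted p = 1.1e-05). NEFM was already higher in PESFA (1.499, adjusted p = 0.0025), CALB2 did not pass at the start (1.06, adjusted p = 0.10), and their changes beyond it of 1.77 for CALB2 and 0.68 for NEFM did not pass (adjusted p = 0.064 and 0.41).

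S100A4 was higher in the cells from PESFA at the start and lower at 96 h. It was at 175 and 247 TPM in cjESCs in PESFA and at 3.70 and 4.09 TPM in DK20FA, a difference that changed by −8.86 ± 0.89 at 96 h (limma adjusted p = 4.0e-09). The PESFA libraries in which it was high were those with 3985 and 2573 TPM of stromal markers. STEAP4 (gene 100394267), a metalloreductase, was at 15.4 and 9.98 TPM in PESFA and at 1.11 and 0.82 TPM in DK20FA, then at 1.04 and 1.81 TPM with IWR1 and at 9.43 and 20.5 TPM with SOX17.

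The comparison of BLSE + IWR1 + BMS with SOX17 + LSE sets the routes against each other in 4 libraries outside the contrast that chose the 64 DEGs. These libraries do enter the spread shared by all 54, and their media also differ in BMP4 and BMS493. This comparison gave 100 DEGs, and 9.48% of genes passed (2.44% higher and 7.05% lower). Of the 61 genes higher in SOX17 + BLSE, 18 passed lower there, 1 passed higher and 42 did not pass, with a median difference of −0.54 beside −0.13 over all genes. The DEGs of both comparisons with the same direction numbered 11, which is 17.2% of the 64 and 11% of the 100. Over all 11197 tested genes, this comparison called 100, of which 87 were lower with IWR1. Lines and starting media differ alike in both comparisons. The part of starting differences in this overlap, such as those of CDX2 and GATM above, was not tested. The 11 genes were CDX2, CHGB, CLDN1, CST6, GATM, IHH, ISM2, LOC100414167, RNASE1, S100A4 and STXBP6, named here after their values were seen.

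IHH (gene 100396668), a hedgehog ligand, was at 1.0 and 3.38 TPM with IWR1 and at 12.0 and 24.5 TPM with SOX17, at 11.1 and 4.99 TPM in BLSE + IWR1 + BMS and at 34.8 and 79.9 TPM in SOX17 + LSE. CLDN1 was at 0.44 to 3.54 TPM in the 4 IWR1 libraries of both comparisons, against 5.63 and 8.43 TPM with SOX17 + BLSE and 36.3 and 34.3 TPM in SOX17 + LSE. GATM reached 134 and 159 TPM in SOX17 + LSE and 9.47 and 11.6 TPM in BLSE + IWR1 + BMS. CST6 was at 16.3 and 16.8 TPM in SOX17 + LSE and at 1.08 and 5.77 TPM in BLSE + IWR1 + BMS. STXBP6 (gene 100389571), amisyn, a SNARE-binding protein of vesicle fusion, was at 0.95 and 0.56 TPM with IWR1 and at 8.64 and 15.8 TPM with SOX17, and at 11.4 and 12.3 TPM in SOX17 + LSE.

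PRR9, COMP and KRT72 were instead high in SOX17 + BLSE alone of the 4 sorted conditions. They were picked for their excess in the SOX17 + BLSE libraries, so a high level there is in part fixed by that choice. PRR9 was at 0 and 5.30 TPM in SOX17 + LSE and at 7.88 and 8.66 TPM in BLSE + IWR1 + BMS. COMP was at 12.1 and 18.8 TPM and at 13.8 and 8.17 TPM, and KRT72 at 2.48 and 9.57 TPM and at 7.74 and 4.71 TPM. S100P was at 0 and 0.80 TPM in SOX17 + LSE, and IVL was listed at 0 in both of its libraries. Of the 61 genes, 33 passed lower in SOX17 + LSE than in SOX17 + BLSE, 3 passed higher and 25 did not pass, in a comparison that shares the SOX17 + BLSE libraries and in which 2.55% of all genes passed lower and 4.55% higher. With BMS493 added to BLSE + IWR1, 3 of the 61 passed, all higher, in a comparison that shares the BLSE + IWR1 libraries and in which 0.438% of all genes passed higher and 0.295% lower. Since the shared libraries chose the 61 genes, nothing is read from these 2 counts. The median level of the 61 genes was 6.52 TPM in SOX17 + LSE, 3.54 TPM in BLSE + IWR1 + BMS, 11.5 TPM in unsorted BLSE cells, 3.11 TPM in cjESCs in PESFA and 2.72 TPM in DK20FA. In BLSE + IWR1 cells sorted at day 6 it was 1.51 TPM, and all 61 were below their SOX17 + BLSE level at 96 h. That level was part of how the 61 genes were chosen, so nothing is read from this count either.

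**Figure D5:**
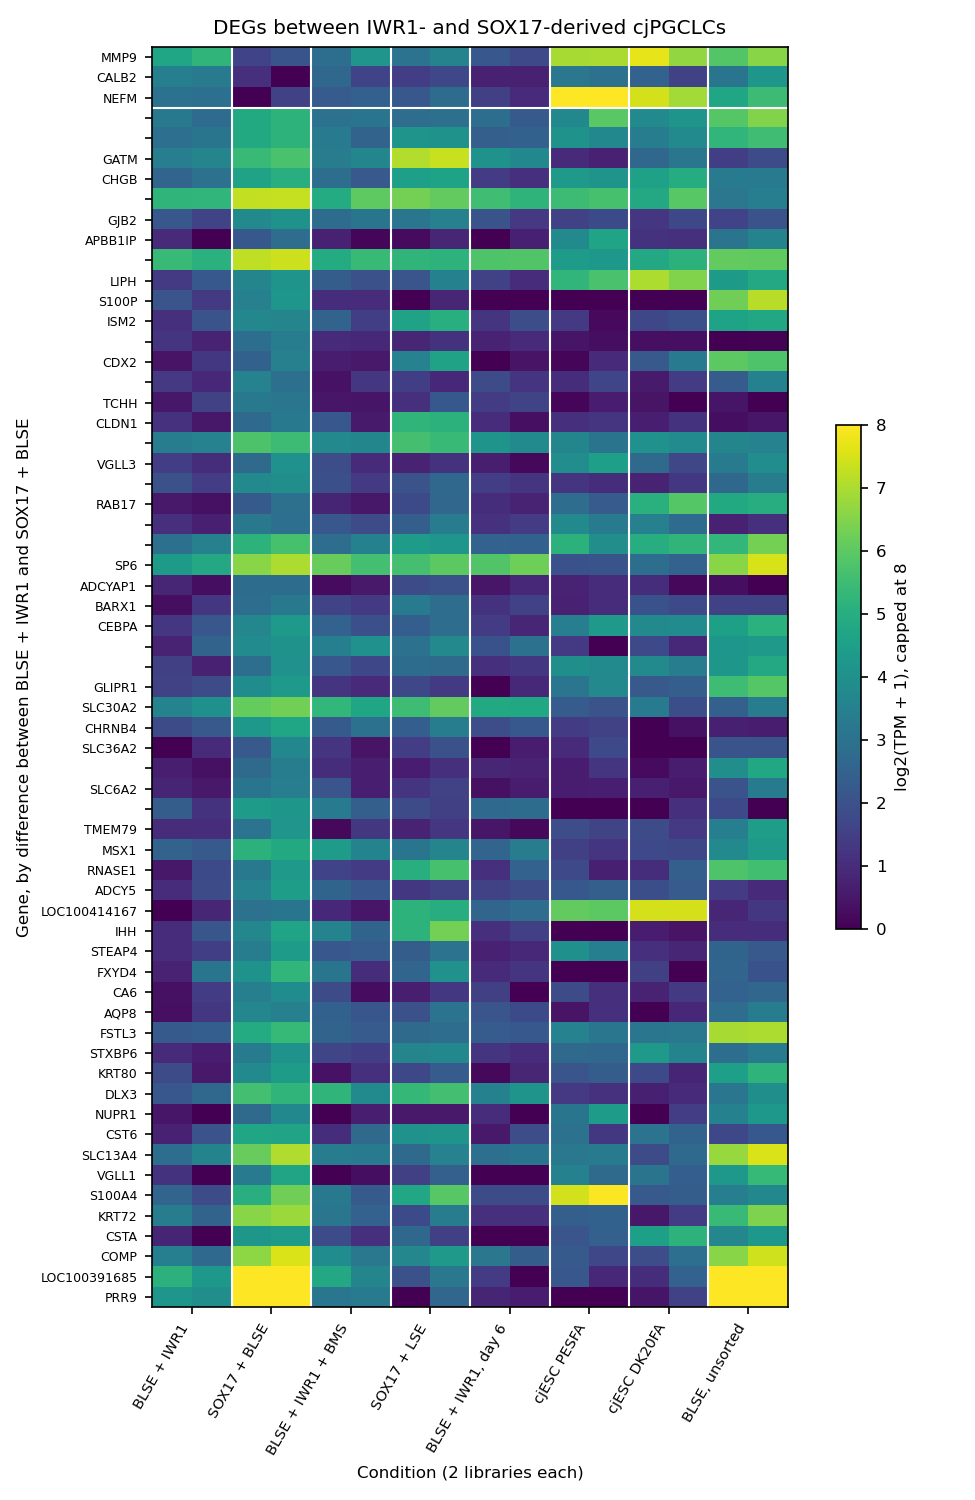
Level of 62 of the 64 DEGs (rows, ordered by their difference at 96 h, with names for those described in the text) in 16 libraries of 8 conditions (columns), coloured by log2(TPM + 1) up to 8. The first 3 rows are higher with IWR1 and the others higher with SOX17; PRR9, LOC100391685 and COMP are high in SOX17 + BLSE and unsorted BLSE cells, and S100A4 in cjESCs in PESFA.

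At 48 h, before sorting, part of these differences was already present. In whole cultures at that time 20.9% of genes passed between the routes (8.06% higher and 12.9% lower with IWR1). Of the 61 genes, 29 passed lower with IWR1, 1 passed higher and 31 did not pass, and their median level was 5.03 TPM with IWR1 and 14.03 TPM with SOX17. PRR9 was at 7.5 and 6.56 TPM with IWR1 and 120 and 164 TPM with SOX17 at 48 h (−4.14, adjusted p = 1.0e-07), and DLX3 at 6.23 and 4.15 TPM against 42.7 and 40.9 TPM (−2.81, adjusted p = 1.3e-06). CDX2 was at 6.98 and 4.09 TPM against 66.9 and 47.7 TPM (−3.17, adjusted p = 2.6e-07), above its level at 96 h in the sorted cells of the same route in all libraries. COMP and CSTA did not pass at 48 h. COMP was at 7.39 and 8.26 TPM against 13.4 and 11.6 TPM (−0.61, adjusted p = 0.40), far below its level in SOX17 + BLSE at 96 h. NEFM was at 540 and 520 TPM with IWR1 and 29.5 and 35.1 TPM with SOX17 (4.001, adjusted p = 2.2e-10). MMP9 did not pass, at 67.1 and 75.9 TPM against 48.2 and 38.9 TPM, and it was at 3.49 and 2.37 TPM in the BLSE + IWR1 cells sorted at day 6. CALB2 and NEFM were also low at day 6, at 0.66 and 0.67 TPM and 1.85 and 0.99 TPM. These cultures hold cells of all kinds, so levels at 48 h and in sorted cells at 96 h are not of the same population.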

How the data were processed

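The authors sorted cells, prepared directional poly(A) libraries, sequenced them from a single end, aligned the reads with STAR to the marmoset build cj1700, filtered the alignments and quantified genes with RSEM. They deposited TPM values (transcript levels per gene length, scaled to a fixed total) with 2 decimals for 54 libraries, without read totals, so depth and counting error are unknown. TPM summed to 830575 to 834587 per library over the 14812 genes of the table.

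From log2(TPM + 1), genes under 1.5 in all 54 libraries were left out, and limma 3.58.1 (R 4.3.3) was fitted to the 11197 others with a mean per condition and an intensity trend. The 27 conditions had 2 libraries each, which share an estimate of the spread. The tests are two-sided, and p-values were adjusted by Benjamini-Hochberg over all 11197 genes. An exact permutation of 2 against 2 libraries cannot give a p under 0.33. The test of change beyond the starting cells subtracts the difference of cjESCs in PESFA and DK20FA.

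The comparison, the gene lists and the rule for named genes were chosen with earlier results of these data known. The rule named MMP9, CALB2, COMP and CSTA, the 15 largest decreases and all increases among DEGs with a symbol, DEGs of a list, germ cell specifiers with NANOS3, transgene parts, and examples of a list. Other genes named in the text, such as the transporters, neural genes and transcription factors among the DEGs, were chosen after their values were seen. Replicate numbers do not pair libraries: deviations of same-numbered libraries of the 2 groups correlated at −0.05. Alternatives were another pseudocount, no filter, median-ratio scaling, quantile normalization, no trend, a replicate block, fits of fewer libraries and leaving out each library. No sequences were used here. Some genes that the rule names are not reported here.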

Additional observations from a re-analysis of the deposited data

Results flagged for a closer look

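For 47 of the 64 DEGs at 96 h the difference between the routes differed from that between their starting cjESCs in PESFA and DK20FA. The test was the limma interaction at an adjusted p under 0.01, in which 11.4% of all tested genes passed. The 96 h difference that chose the 64 DEGs is part of this interaction, so nothing is read from the count. For 9 of the 47 the sign turned, with both differences past the test, from higher in the cells from PESFA at the start to lower at 96 h. Their changes on the log2(TPM + 1) scale were −8.86 for S100A4, −6.03 for NUPR1, −5.42 for STEAP4, −5.199 for KRT72, −5.18 for APBB1IP, −4.14 for VGLL3, −3.87 for SLC36A2, −3.75 for CHRNB4 and −3.51 for GLIPR1. All 9 were chosen among DEGs of the same 96 h libraries, so the changes are not independent of that choice. Markers of stromal cells moved with the starting difference. They summed to 3985 and 2573 TPM in cjESCs in PESFA and to 353 and 454 TPM in DK20FA. The cjESCs were grown on mouse fibroblast feeder cells. The part of stromal or feeder cells in these changes was not tested.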

How the results depend on the processing

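The counts of DEGs rested on the spread estimated over all 54 libraries. With the libraries of each comparison alone, limma called 0 genes at 96 h, 0 between the starting cjESCs, 0 between BLSE + IWR1 + BMS and SOX17 + LSE and 0 at 48 h, and 89 beyond the starting cells in place of 237. With the 8 sorted libraries, 0 were called at 96 h. Unadjusted p-values under 0.05 numbered 2134 and 2645 genes in the 4-library and 8-library fits at 96 h. Leaving out each library in turn gave 41 to 98 DEGs at 96 h, 211 to 252 beyond the starting cells, 223 to 269 between the starting cjESCs, 92 to 112 between BLSE + IWR1 + BMS and SOX17 + LSE, and 196 to 237 at 48 h. At 96 h the pseudocount of 0.1 gave 54 DEGs, no filter 62, median-ratio scaling 56, quantile normalization 58 (7 higher and 51 lower with IWR1) and no intensity trend 64. Quantile normalization moved the share of lower calls between BLSE + IWR1 + BMS and SOX17 + LSE from 87.0% to 74.4%. With the replicate block the counts were 64, 237, 228, 100 and 201, the same as without it. Over 136 named genes and 12 alternatives, 1142 of 1632 values stayed on their side of the threshold, 490 lost the call and 0 changed direction past it.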
